A study of Homo sapiens with 6 samples.

Results

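The genes described here were 38 genes of the antioxidant response governed by the transcription factor NRF2, of glutathione metabolism, of iron handling and of lipid peroxidation, the chemistry behind ferroptosis. They were picked by symbol from the 2 deposited signal tables, and all 38 were found among the 34690 symbols those tables share. By role they formed 21 genes of the NRF2 and thioredoxin group, 6 of the glutathione group, 6 of the iron group and 5 of the lipid peroxidation group. SNU761, an established human hepatocellular carcinoma cell line, was exposed to sorafenib, a multikinase inhibitor used against liver cancer, at a concentration the submitters give as 3 mM, for 24 hours. Control cells of the same line had received the solvent DMSO alone for the same time. Total RNA was measured on Illumina expression BeadChips, with 3 arrays numbered 1 to 3 in each group. The labels do not say whether the numbers stand for separate cultures, so the spread between pairs may be technical. They also do not settle whether the unit of the dose is the intended one, so the dose is uncertain. All 6 arrays are labelled as 1 cell line, which limits what the groups can represent.

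NRF2 is held by KEAP1, which passes it to degradation until oxidants or electrophiles modify KEAP1. Freed NRF2 then enters the nucleus, binds antioxidant response elements and raises genes that make glutathione, reduce thioredoxin and peroxides, supply NADPH and detoxify carbonyls and quinones. Ferroptosis is a form of cell death in which iron drives the peroxidation of polyunsaturated phospholipids faster than GPX4, with glutathione as its reductant, can clear the lipid peroxides. Hepatocytes are the main source of circulating hepcidin and a large store of ferritin iron, and sorafenib has been studied as a trigger of ferroptosis in liver cancer cells.

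A gene was tested where 3 or more of the 6 arrays had a detection p below 0.05, which held for 32 of the 38 genes and for 14641 genes in all. KEAP1, AKR1C1, AKR1C2, GPX1, ACSL4 and ALOX5 were not tested. Precision throughout is set by the small number of arrays. The arrays numbered 3 stood apart from the other 4. Their log2 signals correlated with those of the others at Pearson r between 0.793 and 0.833 across genes, whereas arrays 1 and 2 correlated at 0.932 to 0.959. Marker genes differed as well. Of 12 hepatocyte markers, 11 to 12 were detected on the arrays numbered 1 and 2 and 8 on both arrays numbered 3, where the summed normalized signal of the list was 36166 to 39627, against 111694 to 203276 on the other 4. Within that list APOA1, APOA2, TTR and GPC3 were undetected on both arrays numbered 3 and AFP was 5.89 lower there on the log2 scale, but ALB was 4.80 higher, SERPINA1 0.56 higher and FGB close to level at −0.07. The summed signal of 8 leukocyte markers was 19151 to 25448 on the arrays numbered 3 and 2365 to 4187 on the others, and the pan-leukocyte gene PTPRC and the T cell gene CD3E were undetected on every array. Epithelial markers were detected at 2 to 3 of 5 on the arrays numbered 3 and at 4 to 5 on the others. Their summed signal was 16288 to 16898 on the arrays numbered 3, within the 13073 to 21115 of the others. KRT19 and EPCAM were undetected on both arrays numbered 3, but KRT8 was 0.89, CDH1 0.42 and KRT18 0.24 higher there on the log2 scale. Fibroblast markers were detected at 5 to 7 of 8 on all arrays and endothelial markers at 0 to 1 of 4. Single fibroblast markers nonetheless differed in both directions on the arrays numbered 3. The log2 signal of ACTA2 was 4.85 higher, of COL1A1 3.56 higher and of COL3A1 3.21 higher. LUM was detected on those 2 arrays and none of the others. The log2 difference was −5.94 for VIM and −2.12 for COL1A2, each detected on 1 of the 2 arrays. Whether the arrays numbered 3 hold the same line or stock as the other 4 was not tested, so a mean over 3 pairs may combine unlike cells. The part of these differences in the results was not tested. In bulk RNA, fewer cells of a type and less RNA per cell cannot be told apart. All pair differences are printed for the genes described in full, and values without replicate 3 are added for those it moves most.

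None of the 32 genes passed the threshold, an adjusted p under 0.05 in limma's moderated test with the array number as a block, and neither did any other gene tested (0%). At an unadjusted p under 0.05, 5 of the 32 passed (15.6%, against 19% of all genes tested), namely TXNRD1, PRDX1, TFRC and AKR1C3, which were lower with sorafenib, and SAT1, which was higher. With limma's trend and robust estimation 1 of the 32 was called, PRDX1, in the lower direction (0.458% of all genes tested were called lower and 0.519% higher). Without replicate 3, SAT1 was called higher (1.17% of all genes) and SRXN1 lower (1.02%), which left 4 arrays and 2 pairs. Trend and robust estimation without replicate 3 called SAT1 higher (4.38% of all genes) and TXNRD1, SRXN1, PRDX1, AKR1C3, GPX2 and TFRC lower, 18.8% of the 32 against 5.01% of all genes. The fit without the block called none of the 32 (0% of all genes).

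Differences are sorafenib minus control on the log2 scale within each array number. Of the 32 tested genes, 8 were higher with sorafenib in all 3 pairs (25%, against 21.5% of all genes tested) and 11 were lower in all 3 (34.4%, against 22.2%), while 13 were mixed. GPX2 and HAMP are among the mixed genes, and since neither was above background on the arrays numbered 3, their sign in pair 3 carries no direction. In 2 genes, TXNRD1 and SLC40A1, every sorafenib array was below every control array (6.25%, against 3.25% of all genes), and in 0 genes was every sorafenib array above (3.22% of all genes). The median difference of the 32 genes was −0.10, and that of all genes tested was −0.00042. It was −0.18 in the NRF2 and thioredoxin group, 0.16 in the glutathione group, −0.08 in the iron group and 0.17 in the lipid peroxidation group. The glutathione median was −0.02 without replicate 3, so its sign rested on that pair.

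**Figure D1:**
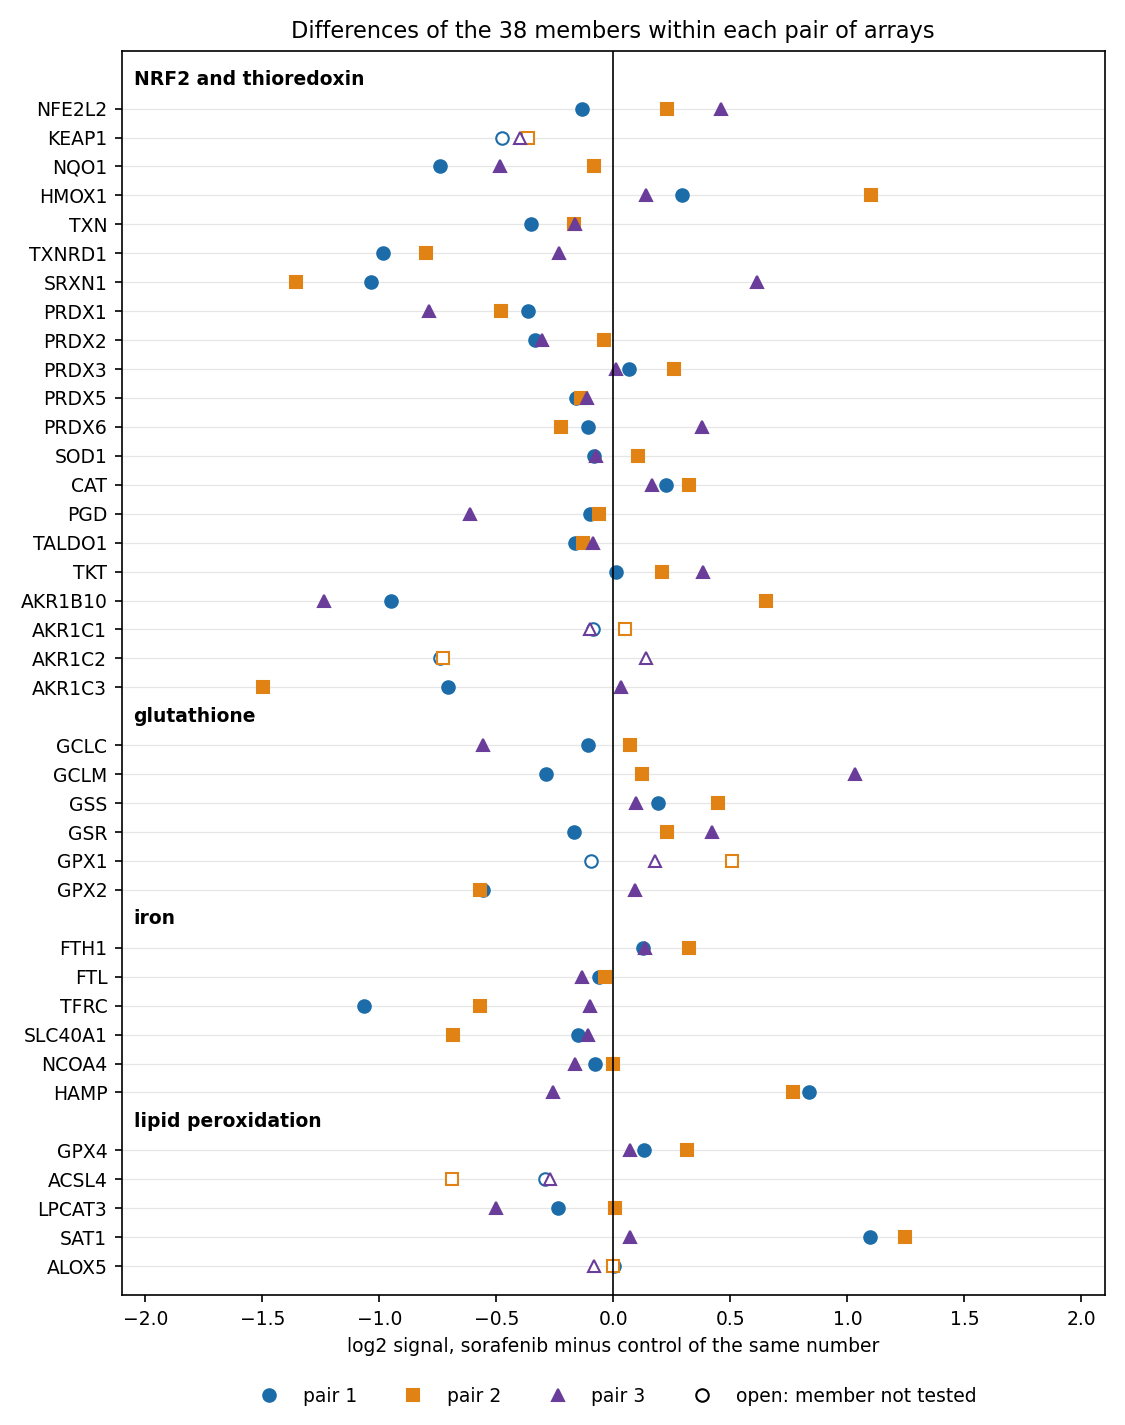
Each row is 1 of the 38 genes, ordered by role, and the x axis is the log2 signal of the sorafenib array minus that of the control array of the same number. Circles, squares and triangles are pairs 1, 2 and 3, and open symbols mark the 6 genes not tested. Most genes lie close to 0, SAT1 and HMOX1 lie to the right, and SRXN1 and AKR1C3 lie far to the left in pairs 1 and 2 but not in pair 3.

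Of the regulators themselves, NFE2L2 was mixed between pairs and KEAP1 was lower with sorafenib in each pair. NFE2L2, which encodes NRF2, had differences of −0.13, 0.23 and 0.46 in pairs 1, 2 and 3, a mean of 0.19 ± 0.30 (SD, n = 3 pairs; limma adjusted p = 0.601), and 0.05 without replicate 3. KEAP1, its inhibitor, had log2 signals of 10.20, 9.79 and 9.68 on the control arrays and 9.72, 9.43 and 9.28 on the sorafenib arrays. Each sorafenib array lay below the control array of its number, but the groups overlapped. On average KEAP1 differed by −0.41 ± 0.06 (SD, n = 3 pairs). KEAP1 was untested because the deposited detection p was 0.05 or higher on every array, although its lowest signal lay 17.8 background SDs above the background mean. Without the detection filter its limma adjusted p was 0.255.

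In the thioredoxin arm, TXNRD1, SRXN1 and PRDX1 were lower on average with sorafenib. TXNRD1, the selenoenzyme that uses NADPH to reduce thioredoxin, had log2 signals of 12.63, 12.33 and 11.68 on the control arrays and 11.65, 11.53 and 11.45 on the sorafenib arrays. All sorafenib arrays lay below all control arrays, with the smallest gap in pair 3. Over 3 pairs the mean was −0.67 ± 0.39 (SD), 1.59-fold lower, with a limma adjusted p of 0.170. In pairs 1 and 2 alone it was −0.89 ± 0.13 (SD, n = 2 pairs), 1.85-fold lower, with a limma adjusted p of 0.0662.

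SRXN1 encodes sulfiredoxin, which restores overoxidized peroxiredoxins. Its log2 signals were 12.42, 12.17 and 10.35 on the control arrays and 11.38, 10.82 and 10.96 on the sorafenib arrays. Pairs 1 and 2 were lower with sorafenib and pair 3 was higher, so the groups overlapped. The mean difference over 3 pairs was −0.59 ± 1.06 (SD; limma adjusted p = 0.425), and −0.37 without replicate 1 and −0.21 without replicate 2. Without replicate 3, SRXN1 fell by 1.19 ± 0.23 on the log2 scale (SD, n = 2 pairs), 2.29-fold, with a limma adjusted p of 0.0351. This call was lost with a background estimate taken from all symbols (adjusted p = 0.271), with no detection filter (adjusted p = 0.175) and with the block left out (adjusted p = 0.987). In those fits 0 of all genes were called, while the difference itself was −1.61 with the background from all symbols and −1.19 in the other 2.

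PRDX1, a cytosolic peroxiredoxin that thioredoxin recycles, had log2 signals of 14.92, 14.77 and 13.92 on the control arrays and 14.55, 14.29 and 13.14 on the sorafenib arrays. It was lower with sorafenib in every pair, pair 3 was lowest in both groups, and the groups overlapped. The mean difference was −0.54 ± 0.22 (SD, n = 3 pairs), 1.46-fold lower. The limma adjusted p was 0.179, and 0.0472 with trend and robust estimation. Without replicate 3 the mean was −0.42, with a limma adjusted p of 0.318. Thioredoxin itself, TXN, differed by −0.35, −0.17 and −0.16 in the 3 pairs. PRDX5 differed by −0.14 ± 0.02 (SD, n = 3 pairs), the mitochondrial PRDX3 by 0.11 on average, PRDX2 by −0.23 and PRDX6 by 0.02. The superoxide dismutase SOD1 differed by −0.02 on average and catalase, CAT, by 0.24 ± 0.08 (SD, n = 3 pairs). None of the genes from TXN to CAT passed the threshold with or without trend and robust estimation, also without replicate 3.

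Promoter windows from RefSeq on GRCh38.p14 were searched on both strands for TGACNNNGC, the core of the antioxidant response element. Of the 38 genes, 29 had a window of 250 bases before a start, in 37 windows. KEAP1, TXNRD1, PGD, GCLM and GPX2 held the letters, in 6 of the 37 windows, against 10.9% of 35116 windows of all genes. A match is only a match of letters. HMOX1, PRDX1, PRDX6, SOD1, AKR1B10, GSS, GSR, FTH1 and ALOX5 had no window. The windows below belong to genes with large differences in pairs 1 and 2 (TXNRD1, SRXN1 and SAT1) and to GPX2, which carries the letters on the opposite strand. They are chr12:104215529-104215778 on the plus strand, chr20:653201-653450 on the minus strand, chrX:23782923-23783172 on the plus strand and chr14:64942746-64942995 on the minus strand, each written 5′ to 3′ along its gene. Capitals mark a match, which lies 99 bases before the start in this window of TXNRD1 and 122 bases before it in GPX2, and windows without capitals held none. TXNRD1 has a second start, whose window is not shown and holds a match 102 bases before it.
TXNRD1: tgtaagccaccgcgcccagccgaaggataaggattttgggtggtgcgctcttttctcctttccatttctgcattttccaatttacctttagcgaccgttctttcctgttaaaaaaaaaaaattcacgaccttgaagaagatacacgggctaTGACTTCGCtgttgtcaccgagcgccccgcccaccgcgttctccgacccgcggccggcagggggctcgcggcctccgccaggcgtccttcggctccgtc
SRXN1: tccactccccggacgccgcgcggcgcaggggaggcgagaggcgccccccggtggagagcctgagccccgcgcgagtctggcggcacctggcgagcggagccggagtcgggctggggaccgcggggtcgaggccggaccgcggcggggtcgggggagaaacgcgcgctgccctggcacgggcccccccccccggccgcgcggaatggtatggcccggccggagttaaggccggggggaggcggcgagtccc
SAT1: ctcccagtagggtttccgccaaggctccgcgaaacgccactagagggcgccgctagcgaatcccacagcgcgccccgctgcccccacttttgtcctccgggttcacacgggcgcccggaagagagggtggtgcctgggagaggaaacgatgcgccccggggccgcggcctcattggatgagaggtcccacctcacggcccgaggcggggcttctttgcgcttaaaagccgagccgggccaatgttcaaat
GPX2: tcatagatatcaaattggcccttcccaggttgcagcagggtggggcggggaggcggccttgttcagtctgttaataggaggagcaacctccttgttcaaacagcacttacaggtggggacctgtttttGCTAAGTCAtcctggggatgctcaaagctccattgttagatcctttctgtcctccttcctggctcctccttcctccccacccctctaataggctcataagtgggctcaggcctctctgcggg

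The classical NRF2 targets did not go one way. HMOX1, heme oxygenase 1, which frees iron from heme, had log2 signals of 7.64, 7.47 and 9.58 on the control arrays and 7.93, 8.57 and 9.72 on the sorafenib arrays. Every pair was higher with sorafenib, pair 2 most, and the groups overlapped because control array 3 exceeded 2 of the sorafenib arrays. The mean difference was 0.51 ± 0.52 (SD, n = 3 pairs), 1.42-fold higher, with a limma adjusted p of 0.282. It was 0.70 without replicate 3, 0.21 without replicate 2 and 0.09 with the background from all symbols. NQO1, the quinone reductase often used as the index gene of NRF2 activity, had log2 signals of 13.57, 13.22 and 10.75 on the control arrays and 12.83, 13.13 and 10.26 on the sorafenib arrays. It was lower in every pair, by −0.44 ± 0.33 (SD, n = 3 pairs), with a limma adjusted p of 0.272, and by −0.28 without replicate 1. Both arrays numbered 3 were far below the other 4.

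Among enzymes of the pentose phosphate pathway, the NADPH source for these reductases, PGD differed by −0.10, −0.06 and −0.61 and TALDO1 by −0.16, −0.13 and −0.09. TKT differed by 0.01, 0.21 and 0.38. All 3 kept 1 sign in every pair, and none passed the threshold. Without replicate 3 the mean of PGD was −0.08 against −0.26 over 3 pairs.

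The aldo-keto reductases, which reduce aldehydes and ketones including lipid peroxidation products, varied widely between array numbers. AKR1B10 had log2 signals of 10.86, 11.01 and 12.61 on the control arrays and 9.91, 11.66 and 11.38 on the sorafenib arrays. Pairs 1 and 3 were lower and pair 2 was higher, with a mean of −0.51 ± 1.02 (SD, n = 3 pairs; limma adjusted p = 0.477). The value depended on the pair left out, at −0.29 without replicate 1, −1.09 without replicate 2 and −0.15 without replicate 3. AKR1C3, which also converts steroids and prostaglandins, had log2 signals of 8.68, 7.97 and 14.15 on the control arrays and 7.97, 6.48 and 14.19 on the sorafenib arrays. The signal of both arrays numbered 3 was far above the other 4, and the treatment difference there was 0.03. Sorafenib array 2 had the lowest signal, only 2.18 background SDs above the background mean, and pair 2 differed by −1.50. The mean difference was −0.72 ± 0.77 (SD, n = 3 pairs; limma adjusted p = 0.250), and −1.10 ± 0.56 in pairs 1 and 2 (SD, n = 2 pairs; limma adjusted p = 0.0559). It was −0.34 without replicate 2 and, over 3 pairs, −0.44 with no background correction and −0.07 with the background from all symbols. AKR1C2 showed the same arrangement, with 7.69, 6.93 and 12.06 on the control arrays and 6.94, 6.21 and 12.20 on the sorafenib arrays, but was detected on 1 array and not tested. AKR1C1 lay at background on every array. The AKR1C genes are similar in sequence, so how the probes split their signal is uncertain.

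**Figure D2:**
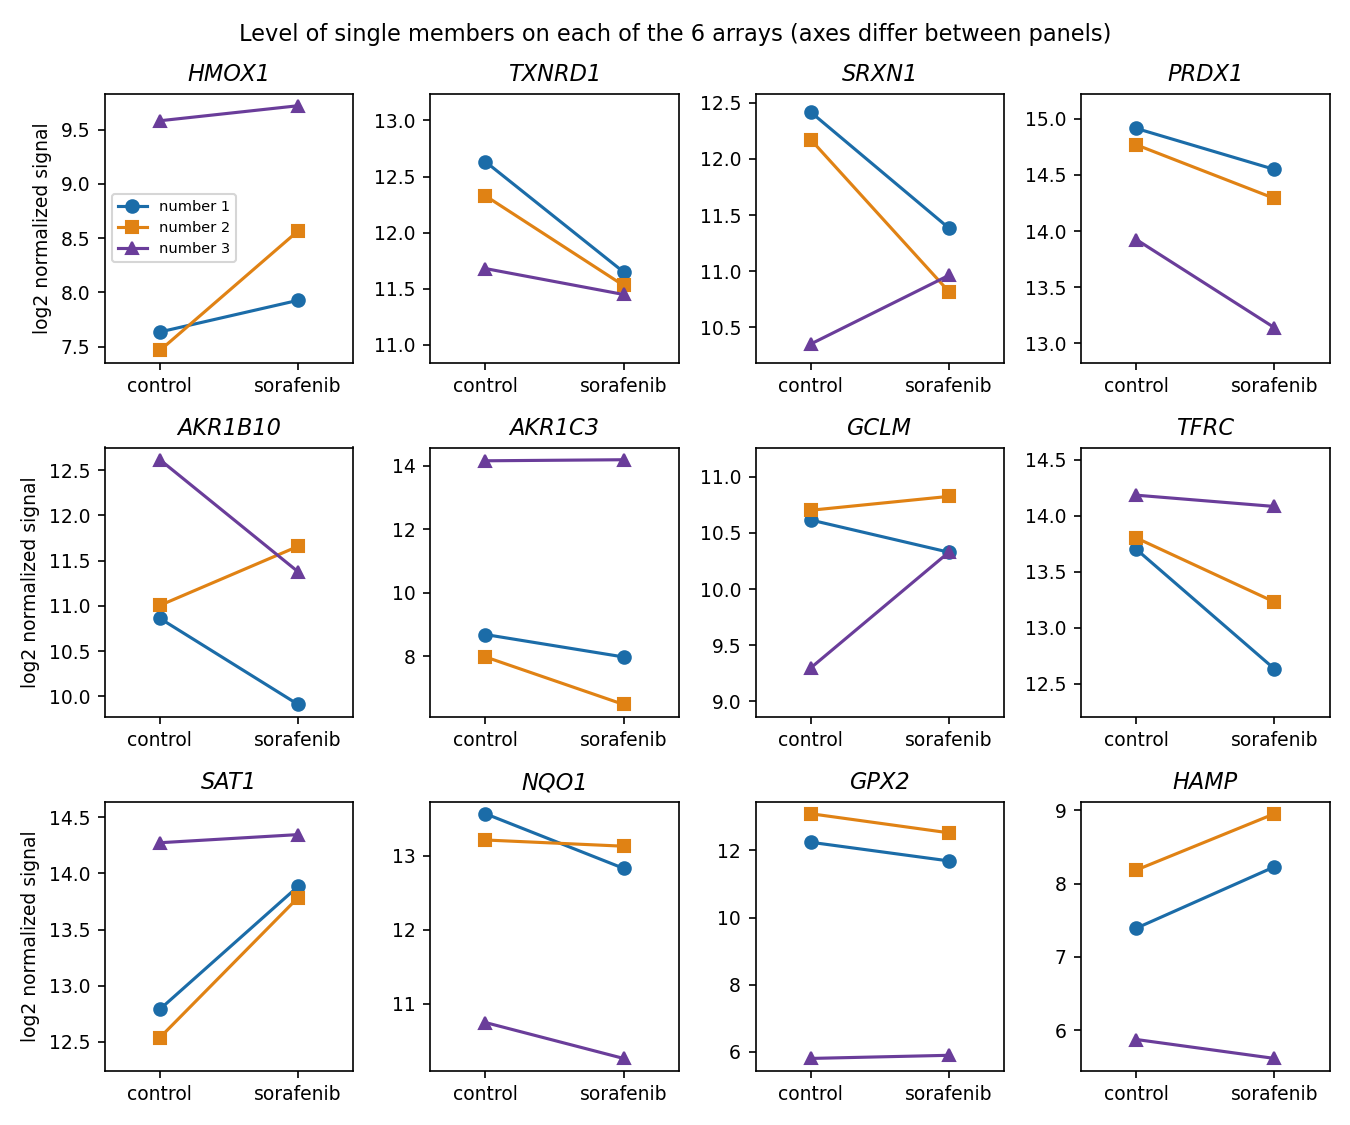
Log2 signal of 12 genes on each array, with control and sorafenib arrays of the same number joined by a line and each panel on its own y axis, so levels are not compared between panels. The sorafenib array lies below its control in all 3 pairs for TXNRD1, PRDX1, NQO1 and TFRC, while for SAT1 and HAMP it lies well above its control in pairs 1 and 2 but not in pair 3.

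In the glutathione group, the 5 genes tested gave 1 gene higher and 0 genes lower in all 3 pairs. GCLM, the modifier subunit of the glutamate-cysteine ligase that starts glutathione synthesis, had log2 signals of 10.62, 10.70 and 9.30 on the control arrays and 10.33, 10.83 and 10.33 on the sorafenib arrays. Control array 3 was the lowest of the 6, and the other 5 lay close together. The mean difference was 0.29 ± 0.68 (SD, n = 3 pairs; limma adjusted p = 0.580), and it was −0.08 without replicate 3, 0.58 without replicate 1, 0.08 with array weights and 0.16 with the background from all symbols. The catalytic subunit GCLC differed by −0.11, 0.07 and −0.55. Glutathione synthetase, GSS, was the gene higher in every pair, by 0.24 ± 0.18 (SD, n = 3 pairs). The reductase GSR, which regenerates glutathione from its disulfide, differed by −0.17, 0.23 and 0.42.

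GPX2, a glutathione peroxidase of epithelia, had log2 signals of 12.24, 13.09 and 5.81 on the control arrays and 11.69, 12.52 and 5.90 on the sorafenib arrays. It was detected on the 4 arrays numbered 1 and 2 and was not above background on the arrays numbered 3, where it was at least 85.2-fold lower. Its difference was −0.56 in pair 1 and −0.57 in pair 2, 1.48-fold lower (limma adjusted p = 0.186 without replicate 3). Over 3 pairs the mean was −0.34 ± 0.38 (SD; limma adjusted p = 0.383), a value that takes in a pair without measurable signal. GPX1 differed by −0.09, 0.51 and 0.18. It was not tested because its deposited detection p missed the filter on every array, although its lowest signal lay 66.8 background SDs above the background mean. Without the filter its limma adjusted p was 0.681.

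In the iron group, 1 of 6 genes was higher and 3 were lower in all 3 pairs. TFRC, the transferrin receptor that brings iron into the cell, had log2 signals of 13.70, 13.80 and 14.18 on the control arrays and 12.63, 13.23 and 14.08 on the sorafenib arrays. It was lower with sorafenib in each pair, most in pair 1 and least in pair 3, and the groups overlapped through sorafenib array 3. The mean difference was −0.58 ± 0.48 (SD, n = 3 pairs), 1.49-fold lower, with a limma adjusted p of 0.230, and −0.34 without replicate 1. In pairs 1 and 2 it was −0.82 ± 0.35 (SD, n = 2 pairs), 1.76-fold lower, with a limma adjusted p of 0.0943.

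The exporter and its hormone were also measured. SLC40A1, ferroportin, the iron exporter, had log2 signals of 11.14, 11.30 and 11.08 on the control arrays and 10.99, 10.62 and 10.98 on the sorafenib arrays. The groups did not overlap, though pairs 1 and 3 differed by only −0.15 and −0.11, and the limma adjusted p was 0.399. Without replicate 2 the mean was −0.13, against −0.31 over 3 pairs. HAMP encodes hepcidin, the liver hormone that binds ferroportin and removes it from the membrane. Its log2 signals were 7.39, 8.18 and 5.88 on the control arrays and 8.23, 8.95 and 5.62 on the sorafenib arrays. It was higher with sorafenib in pairs 1 and 2, by 0.80 ± 0.05 (SD, n = 2 pairs), 1.74-fold (limma adjusted p = 0.0842). Over 3 pairs the mean was 0.45, and 0.08 with the background from all symbols. On both arrays numbered 3 it was not above background and was at least 4.65-fold lower than on the other 4.

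Ferritin, the iron store, differed little. The heavy chain FTH1 differed by 0.19 ± 0.11 (SD, n = 3 pairs) and the light chain FTL differed by −0.08, with NCOA4, the receptor that carries ferritin to lysosomes, also at −0.08. Ferritin genes have many processed pseudogenes, and signal from those could not be told apart here.

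In the lipid peroxidation group, SAT1 had the largest mean difference over 3 pairs of the 32 tested genes. SAT1 acetylates spermidine and spermine, the first step of polyamine breakdown, and has been tied to ferroptosis downstream of p53. Its log2 signals were 12.79, 12.54 and 14.27 on the control arrays and 13.88, 13.78 and 14.35 on the sorafenib arrays. Control arrays 1 and 2 were lowest, and control array 3 already stood above sorafenib arrays 1 and 2. The pair differences were 1.10, 1.25 and 0.07, with a mean of 0.81 ± 0.64 (SD, n = 3 pairs), 1.75-fold higher and a limma adjusted p of 0.185. Without replicate 3, SAT1 rose by 1.17 ± 0.11 (SD, n = 2 pairs), 2.25-fold, with a limma adjusted p of 0.0351. As for SRXN1, that call was lost with the background from all symbols (adjusted p = 0.243), with no detection filter (adjusted p = 0.175) and with no block (adjusted p = 0.987). The difference was 1.31 with the background from all symbols and 1.17 in the other 2, and 0 of all genes were called in these fits. The SAT1 and SRXN1 calls without replicate 3 held with no background correction (6.83% of all genes called) and an offset of 50 (5.68%). They also held with median scaling (1.91%) and when normalized over 4 arrays (1.69%). TXNRD1 and TFRC were called with no background correction and an offset of 50, but not with median scaling or over 4 arrays.

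GPX4, the selenoenzyme that reduces phospholipid hydroperoxides, had log2 signals of 13.64, 13.52 and 13.51 on the control arrays and 13.78, 13.84 and 13.58 on the sorafenib arrays. It differed by 0.17 ± 0.13 (SD, n = 3 pairs; limma adjusted p = 0.581), each sorafenib array lying slightly above the control array of its number. ACSL4, which activates the polyunsaturated fatty acids that become peroxidized, had log2 signals of 10.26, 10.86 and 12.07 on the control arrays and 9.97, 10.17 and 11.80 on the sorafenib arrays. It was lower in each pair, by −0.42 ± 0.24 (SD, n = 3 pairs), but its deposited detection p missed the filter on every array despite a lowest signal 30.6 background SDs above the background mean, and without the filter its limma adjusted p was 0.329. LPCAT3, which places those fatty acids into phospholipids, differed by −0.24, 0.01 and −0.50. The lipoxygenase ALOX5 lay near background, was detected on 2 arrays and was not tested.

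**Figure D3:**
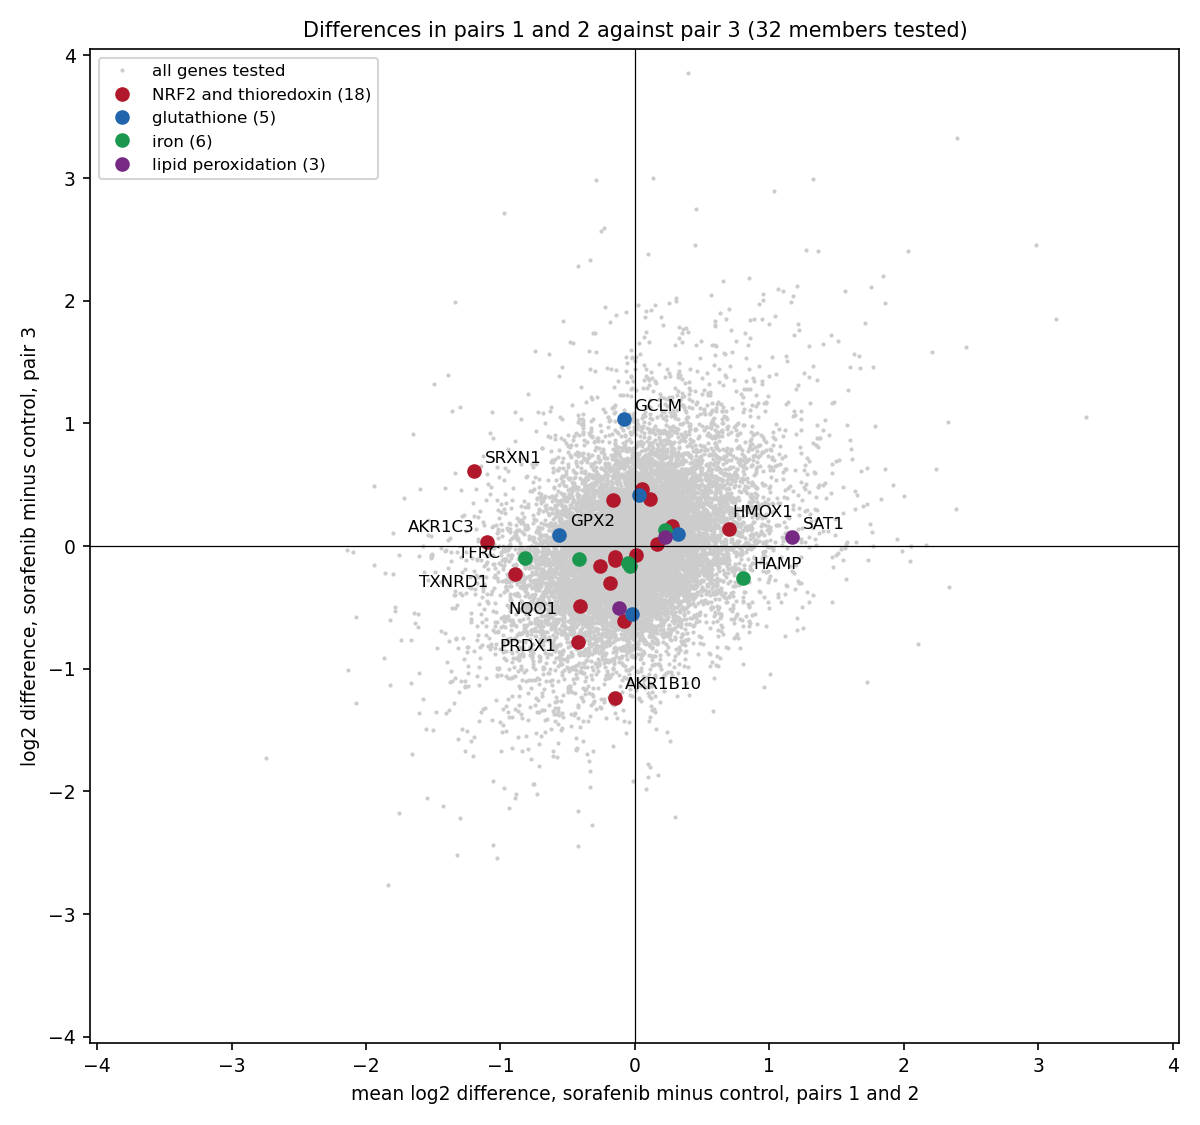
Each point is a gene, with the mean log2 difference of pairs 1 and 2 on the x axis and the difference of pair 3 on the y axis, the 32 tested genes coloured by role and all 14641 genes tested in grey. SRXN1 lies at −1.19 and 0.61, SAT1 at 1.17 and 0.07, and GCLM at −0.08 and 1.03, away from the diagonal. GPX2 and HAMP were not above background in pair 3, so their height in the plot carries no direction.

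By sign alone, 4 of the 32 genes were lower in pairs 1 and 2 and higher in pair 3 (10.4% of all genes tested), namely SRXN1, PRDX6, AKR1C3 and GPX2, and 1, HAMP, was the opposite (11.4%). Of these, GPX2 and HAMP were not above background in pair 3 and AKR1C3 differed there by 0.03, which leaves SRXN1 at 0.61 and PRDX6 at 0.38 in that pair. Whether the treatment difference of pair 3 departs from the others was not tested, since it is 1 pair. The levels of the same genes also set the arrays numbered 3 apart. Of the 32, 5 had a mean log2 signal at least 2-fold higher there than on the other 4 arrays (14% of all genes tested) and 10 at least 2-fold lower (17.9%). The log2 difference was 6.40 for AKR1C3, 1.75 for HMOX1, 1.14 for AKR1B10, 1.08 for LPCAT3 and 1.06 for SAT1. It was −2.68 for NQO1, −2.32 for GSR and −2.11 for PGD. For GPX2 and HAMP, not above background on the arrays numbered 3, only the bounds given above hold, −6.41 or lower and −2.22 or lower on the log2 scale.

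**Figure D4:**
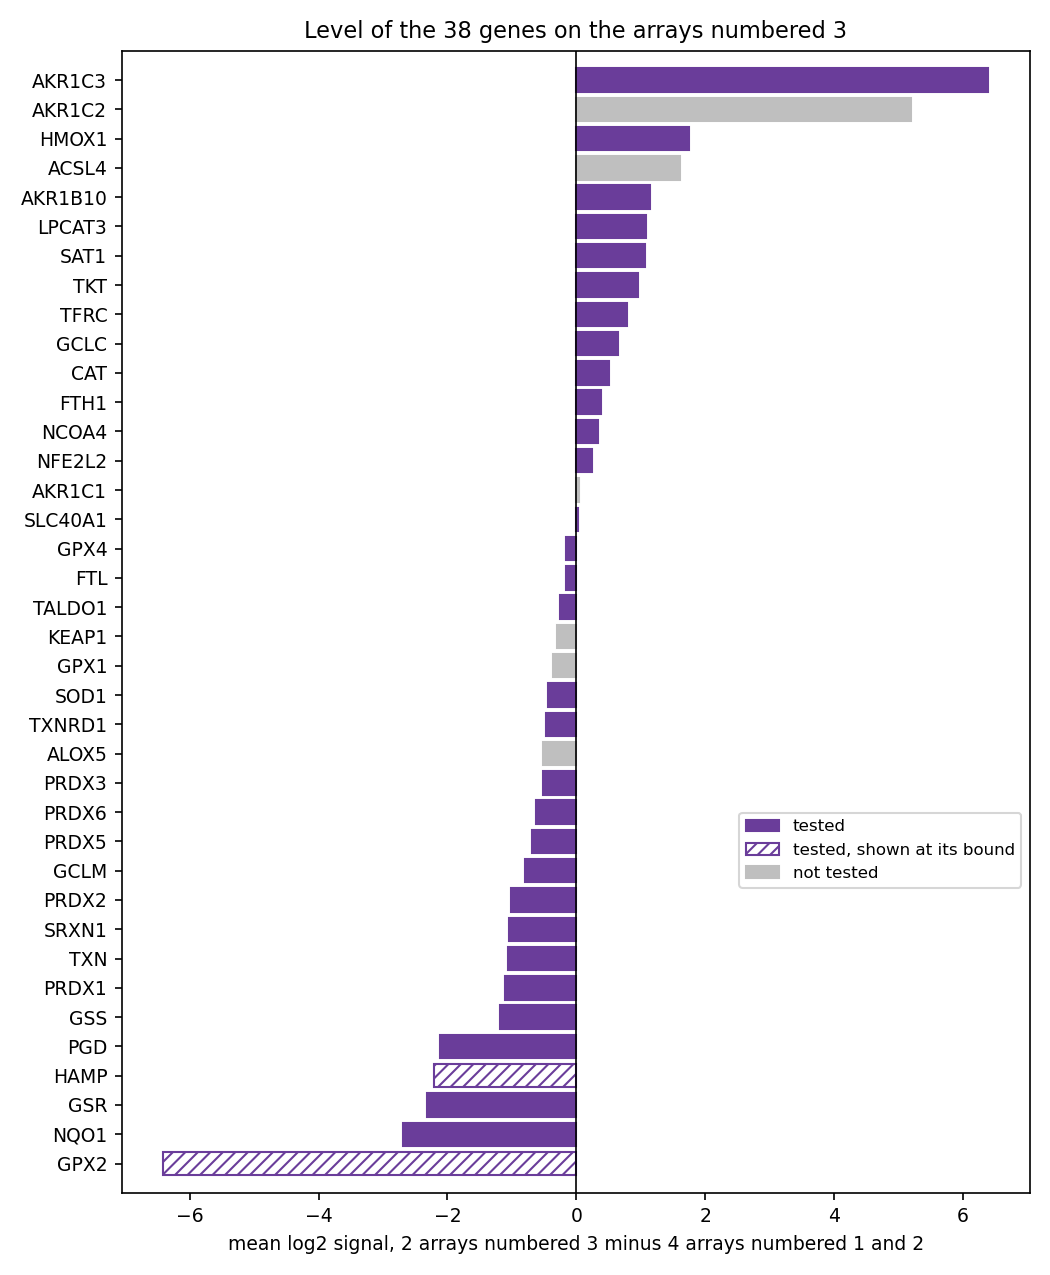
Mean log2 signal of the 2 arrays numbered 3 minus that of the other 4 arrays for each of the 38 genes as bars, ordered by size, purple for genes tested and grey for the 6 not tested. Hatched bars are bounds for GPX2 and HAMP, which may lie further to the left, and AKR1C3 stands highest at 6.40.

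Of 167 other genes of these pathways, listed by general knowledge, all were found, 3 of them under older symbols, and 122 were tested. In limma with the block, 0 passed the threshold and 25 had an unadjusted p under 0.05 (20.5%, against 19% of all genes tested). Their median difference was 0.003. In all 3 pairs 28 of the 122 were higher (23%, against 21.5% of all genes) and 25 were lower (20.5%, against 22.2%). The gene called with trend and robust estimation was SLC3A2, the heavy chain that pairs with SLC7A11 to import cystine for glutathione. Its log2 signals were 10.81, 10.53 and 10.10 on the control arrays and 11.49, 12.37 and 11.51 on the sorafenib arrays. All sorafenib arrays lay above all control arrays, with a mean difference of 1.31 ± 0.58 (SD, n = 3 pairs), 2.47-fold. The limma adjusted p was 0.0407 with trend and robust estimation and 0.111 without. With trend and robust estimation 0.519% of all genes tested were called higher. SLC7A11, the cystine-carrying chain, differed by 0.15, 0.51 and 1.37 (limma adjusted p = 0.229) and was detected on 3 arrays. TXNIP, which binds and inhibits thioredoxin, was the 1 gene of the 167 called without replicate 3 and was chosen after its values were seen. It differed by −0.95, −1.62 and −0.21 in pairs 1, 2 and 3, with a limma adjusted p of 0.0375 without replicate 3. In that fit 1.02% of all genes tested were called lower.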

How the data were processed

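RNA of SNU761 cells with sorafenib or DMSO (3 arrays per group) was read on Illumina BeadChips. Per the file headers, the authors deposited 2 tables of average signal intensity per gene symbol, not normalized, each with a detection p-value per array. The software that made them is not given in the sources used here, and it is not recorded how probes of 1 gene were combined. Another deposited table holds log2 values. Its control columns equal the quantile-normalized log2 signal, but its sorafenib columns are filled for 59 rows, none of the 38 genes among them, so it was not used.

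The tables were joined by symbol. Signals were background-corrected by normexp (offset 16, background from the detection p of 27247 symbols that behaved as single probes), quantile normalized and put on the log2 scale with limma 3.58.1 in R 4.3.3. Genes with detection p under 0.05 on at least 3 of 6 arrays were tested with lmFit and eBayes, with group and the array number as a block, two-sided, adjusted by Benjamini-Hochberg over all 14641 genes (threshold 0.05). Median raw signal per array was 134 to 171, with 13195 to 15227 symbols detected. The numbers come from the titles. Deviations from group means correlated at 0.904, 0.791 and 0.926 between arrays of numbers 1, 2 and 3. The arrays numbered 3 lay far from the others in both groups and weigh on these values. They therefore cannot show whether number 1 pairs with 1 and number 2 with 2, which was taken from the titles. The code was checked on simulated data with independent noise, capped for the most variable genes. That check does not measure error rates in these data.

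The 38 genes, the lists and the tests were chosen with earlier results of these data known. Tested genes got a value for every array if they had 1 sign in all pairs and a mean log2 difference of at least 0.5, or a pair difference of at least 1, and further genes with values for every array were chosen after their values were seen. Of the other pathway genes, those called with the block, plain or with trend and robust estimation, were named. Alternatives covered pairing, variance model, array weights, background, offset, normalization, detection filter and leaving out each number. Combinations with replicate 3 left out were added after seeing the data.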

Additional observations from a re-analysis of the deposited data

How the results depend on the processing

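Precision is limited by 3 arrays per group and by the arrays numbered 3. Of 384 values of the 32 tested genes under 12 alternatives, 375 kept their direction and side of the threshold. Alternatives that changed only the block, the variance model or the detection filter could not change a gene's difference, so its direction was fixed there. PRDX6 reversed to −0.0245 with array weights and −0.0039 with median scaling, and ran from −0.165 to 0.135 when each pair was left out. SOD1 ran from −0.0769 to 0.0156 and GCLM from −0.0819 to 0.578 when each pair was left out. All genes past the threshold numbered 0 in the fit with the block, 0 with no replicate block, 10 with array weights, 3 with no background correction, 143 with a trended and robust variance, and 0 to 320 when each pair was left out. With trend and robust estimation the count was 58, 1 and 1375 without replicates 1, 2 and 3. Without replicate 3 it was also 1000 with no background correction, 832 with an offset of 50, 280 with median scaling and 247 when normalized over 4 arrays, but 0 with background from all symbols, no detection filter or no block. Of the 32 genes, 0 passed in the fit with the block, 1 with trend and robust estimation, 0 to 2 when each pair was left out and 7 with trend and robust estimation without replicate 3. Without replicate 3 they numbered 6 with no background correction, 6 with an offset of 50, 2 with median scaling and 2 when normalized over 4 arrays. Of the other pathway genes, 1 passed with trend and robust estimation, 0 to 1 when each pair was left out, and, with trend and robust estimation, 1 without replicate 1 and 10 without replicate 3. The median of the lipid peroxidation group was −0.0272 with no detection filter, where more genes enter, and that of the glutathione group ran from −0.0193 to 0.273 when each pair was left out. The causes were not tested.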
